A study of Homo sapiens with 2 samples.

Results

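The carbonic anhydrase cluster on human chromosome 8 is a row of 4 related genes, CA13, CA1, CA3 and CA2, beside which lies E2F5, a gene of a different family. These 5 genes were picked out of the 62702 rows of a gene count table by their symbols, with their behaviour in the same comparison already known, so their differences are described here and not tested. The table came from K562, an established line from a human chronic myeloid leukemia that makes embryonic and fetal globins. Its cells carried dCas9-KRAB, an inactive Cas9 joined to a repressor domain that silences the promoter to which a guide RNA leads it (CRISPR interference). A first library came from cells with a control guide (sgRNA_Control), the other from cells with a guide against SMC1A (sgRNA_SMC1A), which encodes a core subunit of the cohesin ring. Both groups share the genotype label E50_dCas9-KRAB, whose E50 the labels leave unexplained, the description WT in the title, lentiviral delivery of the guide with a blue fluorescent marker, puromycin at 1 µg/ml from day 2 to day 6, and a sort for cells bright in the marker. Not given in the sources used here were the promoter that drives dCas9-KRAB, the number of clones in the line and the sequence of each guide.

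Carbonic anhydrases are zinc enzymes that interconvert carbon dioxide and bicarbonate, which lets red cells carry carbon dioxide and helps many tissues handle acid. CA1 and CA2 are the main red cell forms: CA1 is the more abundant and slower enzyme and is known as a marker of adult rather than fetal red cells, whereas CA2 is very fast and its inherited loss causes osteopetrosis with renal tubular acidosis. CA3 is a slow form typical of skeletal muscle and fat, and CA13 is a cytosolic form found in many tissues. E2F5 is a transcription factor of the repressive E2F class, which acts with the pocket proteins to hold down cell cycle genes. Cohesin, whose subunit was depleted, extrudes chromatin loops and shapes contacts between enhancers and promoters.

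Each guide had 1 library, so there is no spread between replicates, no test and no p-value. The control library held 18349209 counts in total and the SMC1A library 16864207. Levels are CPM, the usual depth-scaled counts, with library sizes adjusted by TMM factors, and a log2 ratio is always the SMC1A guide over the control guide. Log2 ratios, and the 2-fold calls made from them, include a prior count of 1, which pulls ratios of low counts toward 0. Folds and intervals come from the counts without it. Intervals are exact 95% intervals (Clopper-Pearson for ratios and shares, Poisson for levels) and cover counting error only, not variation between cultures or amplification of reads. In bulk RNA, a larger share of cells that express a gene and more RNA per cell cannot be told apart. The targeted gene itself stood at 460.4 CPM (8077 counts) in the control library and 16.3 CPM (288 counts) in the SMC1A library. Scaling by library totals in place of TMM moves the median log2 ratio of all genes up by 0.13, and ratios are given on the TMM scale.

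All 4 carbonic anhydrase genes of the cluster had higher RNA levels in the SMC1A library, and E2F5 did not. CA1 was 6.26-fold higher, CA13 4.55-fold and CA2, on few counts, 8.62-fold, while CA3 was 2.07-fold higher on few counts. E2F5 stood at 0.866 of its control level. Of the 5 genes, 3 (E2F5, CA13 and CA1) had at least 100 counts over both libraries, and 2 of these 3 were past 2-fold upward and 0 downward. Over all 11321 genes with that many counts, 5.11% were past 2-fold upward and 2.32% downward. The whole interval lay past 2-fold upward for CA1 and CA13, as for 3.03% of the 11321. It did so too for CA2, which has fewer counts, as for 9.88% of the 2936 genes with 20 to under 100 counts. Since the genes were chosen on this contrast, the comparison with that background is a description.

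**Figure D1:**
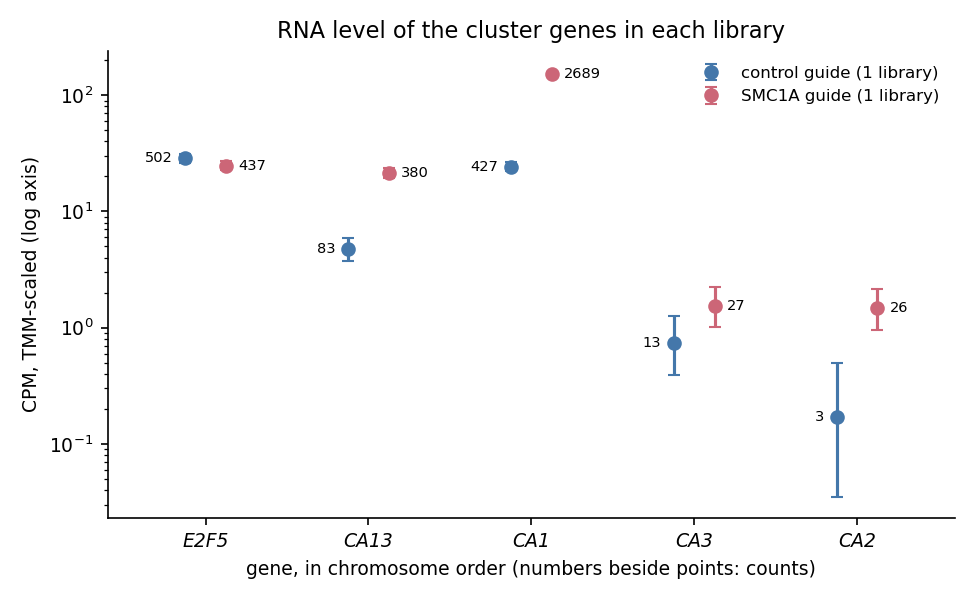
RNA level of the 5 genes in chromosome order, in CPM on a log axis, in the control library (blue) and the SMC1A library (red). Bars are exact 95% Poisson intervals and the numbers beside the points are counts: the intervals of the 2 libraries are apart for CA13, CA1 and CA2 and overlap for E2F5 and CA3.

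CA1 (ENSG00000133742.14) lies on the minus strand of chromosome 8 at 85327608 to 85379014 (GRCh38). It had 427 counts in the control library, or 24.3 CPM (interval 22.1 to 26.8), and 2689 counts in the SMC1A library, or 152.5 CPM (146.8 to 158.3). The log2 ratio was 2.64 (2.50 to 2.80). Among the 11321 genes with at least 100 counts it held rank 72 from the highest ratio, so that 0.627% of them had a higher one. Genes with 1000 or more counts, as CA1 has, were seldom past even 2-fold upward: 1.8% of 6395 were.

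CA13 (ENSG00000185015.8; plus strand, 85220587 to 85284073) was the other well-measured member. It had 83 counts in the control library and 380 in the SMC1A library, which is 4.73 CPM (3.77 to 5.86) and 21.5 CPM (19.4 to 23.8). The log2 ratio of 2.17 (1.84 to 2.55) ranked 106. Of the 4926 genes with 100 to under 1000 counts, 9.42% were past 2-fold upward.

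CA2 (ENSG00000104267.10; plus strand, 85463852 to 85481493) was close to absent in the control library, with 3 counts (0.171 CPM), and had 26 counts (1.47 CPM) in the SMC1A library. The fold of 8.62 had a wide interval, 2.64 to 44.5, and the log2 ratio of 2.75 depends on the prior count added to such low values. CA3 (ENSG00000164879.7; plus strand, 85373436 to 85449040) had 13 and 27 counts, or 0.741 and 1.53 CPM, and a fold of 2.07 (1.03 to 4.36). With a log2 ratio of 0.99, which unlike the fold includes the prior count, CA3 fell just short of the 2-fold limit. No other member was near that limit. Genes with low counts had widely spread ratios in these libraries, more of them upward than downward, for a reason that was not tested. Of the 2936 genes with 20 to under 100 counts, 26.6% were past 2-fold upward and 8.69% downward, and their median log2 ratio was 0.31. A 2-fold difference in CA3 is therefore common at its depth.

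E2F5 (ENSG00000133740.11; plus strand, 85177225 to 85217158) had 502 counts (28.6 CPM, 26.2 to 31.2) with the control guide and 437 counts (24.8 CPM, 22.5 to 27.2) with the SMC1A guide. The log2 ratio was -0.21 (-0.40 to -0.02), or -0.08 when libraries were scaled by their totals. A higher ratio was found in 65.6% of genes with 100 counts. In counts, the order of E2F5 and CA1 differed between the libraries. There were 0.851 CA1 counts per E2F5 count in the control library and 6.15 in the SMC1A library, a comparison within each library that needs no scaling.

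The 5 genes gave 10 pairs, and for each pair the fold of one gene was divided by that of the other, with an exact conditional interval that covers counting error only and is not adjusted for the number of pairs. In 6 pairs the interval left out 1. CA1 differed from E2F5 by a factor of 7.23 (6.12 to 8.55) and CA13 from E2F5 by 5.25 (3.99 to 6.97). E2F5 was also apart from CA2 and from CA3, the latter by a factor of 2.38 (1.17 to 5.10). Among the carbonic anhydrases, the fold of CA1 exceeded that of CA13 by 1.38 (1.05 to 1.79) and that of CA3 by 3.03 (1.424 to 6.14). The fold of CA2 could not be separated from that of CA1 at this depth (1.38, interval 0.419 to 7.13), nor from that of CA13 or CA3.

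**Figure D2:**
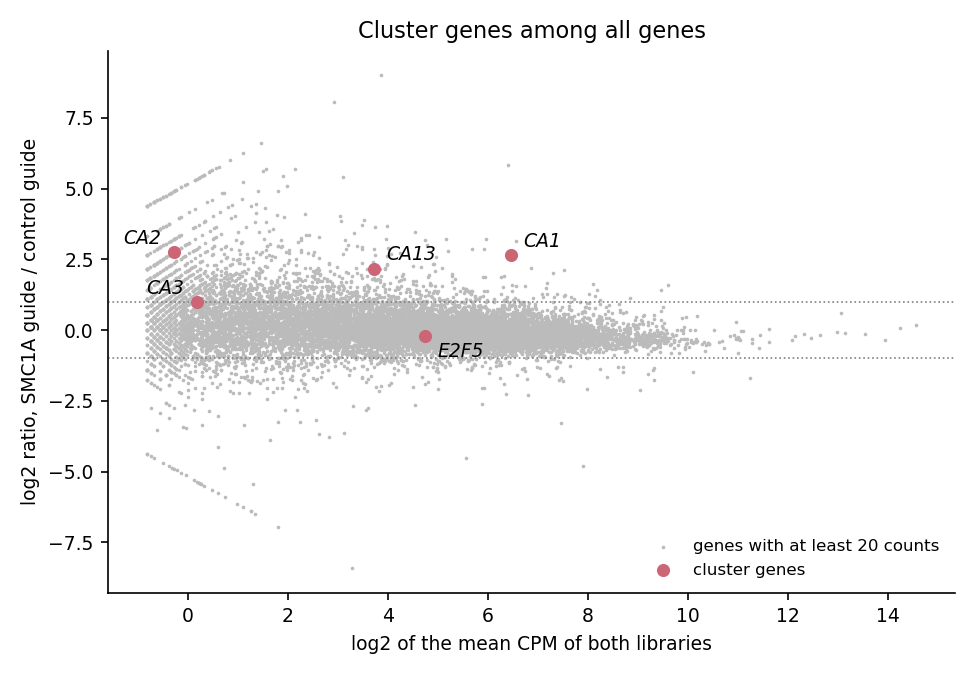
Log2 ratio of the SMC1A guide over the control guide against the log2 of the mean CPM of both libraries, for every gene with at least 20 counts (grey) and the 5 cluster genes (red); dotted lines mark 2-fold. CA1 and CA13 lie past the upper line, as a minority of genes of their level do, E2F5 lies between the lines, and CA2 and CA3 lie where low counts spread the ratios.

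Summed over the cluster, the 4 carbonic anhydrases had 526 counts (30.0 CPM) in the control library and 3122 counts (177.0 CPM) in the SMC1A library, a 5.90-fold difference (5.38 to 6.49). CA1 supplied most of the sum in both. Its share was 81.2% (77.6 to 84.4) in the control library and 86.1% (84.9 to 87.3) in the SMC1A library. CA13 supplied 15.8% (12.8 to 19.2) and 12.2% (11.0 to 13.4), intervals that overlap. CA3 supplied 2.47% (1.32 to 4.19) and 0.865% (0.571 to 1.26), and CA2 0.570% (0.118 to 1.66) and 0.833% (0.545 to 1.22). CA1 thus gave most of the counts in both libraries, and its share was larger and that of CA3 smaller in the SMC1A library beyond their counting intervals.

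Levels of different genes can be compared only per length. Per kilobase of merged exon length (GENCODE release 29), CA1 was the highest of the 4 enzymes, at 5.98 CPM per kilobase in the control library and 37.5 in the SMC1A library. CA13 followed with 0.856 and 3.90. CA3 was at 0.321 and 0.663 and CA2 at 0.0805 and 0.694, so that these lowest genes stood in the order CA3, CA2 in the control library and were level in the SMC1A library. E2F5 was at 4.83 and 4.18 CPM per kilobase. Its place beside CA1 in the control library depends on the length used: per kilobase of the longest coding transcript, a choice added after the data were seen, E2F5 was at 15.1 and CA1 at 8.74, and in the SMC1A library they were at 13.1 and 54.7.

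The position of the genes gives the contrast between neighbours. The cluster from CA13 to CA2 is flanked on the E2F5 side by RBIS, a gene for a ribosome biogenesis factor. In the GENCODE annotation RBIS and CA13 are transcribed away from each other from starts 0.166 kb apart. RBIS had 732 counts (41.7 CPM) and 650 counts (36.9 CPM), a log2 ratio of -0.18 (-0.33 to -0.02), beside the 2.17 of CA13. The RefSeq annotation (GRCh38.p14) starts CA13 24.9 kb further downstream, which puts its start 25.1 kb from that of RBIS. Gene counts do not show which start the CA13 RNA used. The annotations differ for CA3 as well, with a GENCODE span that begins inside CA1 and a RefSeq start 65.4 kb further on. For CA1, CA2 and E2F5 the 2 starts lie within 0.901 kb of each other.

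Within 1 Mb of the cluster, GENCODE lists 41 other genes of the table, and 32 of them had 0 counts in both libraries, among them the vacuolar proton pump gene ATP6V0D2. Only 4 had at least 100 counts, of which 0 were past 2-fold in either direction. Their median log2 ratio was 0.09. Over all genes with 100 counts the median was -0.05. LRRCC1, a centrosome gene on the far side of E2F5, had 697 and 804 counts (log2 ratio 0.20, interval 0.05 to 0.35). Beyond CA2, the ubiquitin ligase gene WWP1, 861.2 kb from the cluster, had 451 and 542 counts (0.26, 0.07 to 0.44). RMDN1, 986.8 kb away, had 825 and 824 counts (-0.01, -0.15 to 0.13). No gene with at least 100 counts lay nearer on that side, so its close flank was not measured. The 4 neighbours with at least 100 counts lay near their control level, while CA13 and CA1 were several-fold higher. Over all genes with that many counts, 5.11% were past 2-fold upward and 2.32% downward. A count of 0 among 4 is near those shares and is not read as a trait of the region. One non-coding gene, ENSG00000253154, which was singled out after its counts were seen, had 59 and 18 counts and lay 351.9 kb beyond CA2. It was 3.29-fold lower (log2 ratio -1.67, interval -2.57 to -0.94). On chromosome 8 as a whole, 363 genes had at least 100 counts, of which 5.23% were past 2-fold upward and 1.65% downward.

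**Figure D3:**
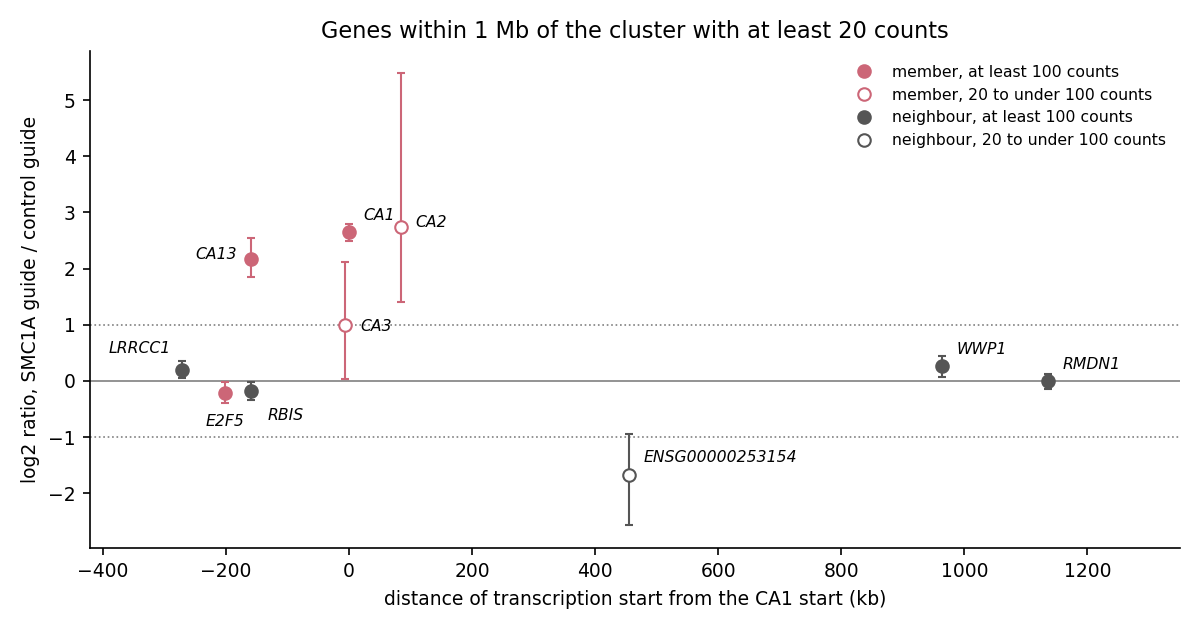
Log2 ratio of each gene within 1 Mb of the cluster that had at least 20 counts, against the distance of its GENCODE start from the CA1 start in kb. Red marks the 5 genes, grey their neighbours, open circles genes with 20 to under 100 counts, bars exact 95% intervals and dotted lines 2-fold: CA13, CA1 and CA2 stand above the upper line, the 4 neighbours with at least 100 counts lie near 0, and ENSG00000253154, with fewer counts, lies below the lower line.

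Overlap of the genes themselves bears on how reads were assigned. The library kit kept strand, but whether the counting used it is not given in the sources used here. Spans of CA1 and CA3 overlap by 5579 bases on opposite strands, with 0 bases of exon shared. CA13 shares 191 exon bases with an antisense RNA that had 1 and 4 counts. CA3 shares 165 with CA3-AS1, which had 1 and 0 counts. E2F5 shares 969 exon bases with RBIS on the opposite strand, so without strand some of their reads could not be told apart. No stretch of 31 bases was common to the transcripts of any pair of the 5 genes (0 shared), and for CA2 and CA3 0 such stretches occur in sense in any other gene. In CA1, 1.05% of its 4469 stretches do, in CA13 2.67% and in E2F5 3.78%. In antisense to another gene, the shares were 20.1% for E2F5, 5.96% for CA3, 5.70% for CA13, 1.19% for CA1 and 0 for CA2.

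The rest of the carbonic anhydrase family was measured in the same libraries. Of 11 family genes elsewhere, 2 had at least 100 counts, 1 of them past 2-fold upward and 0 downward. CA8, which encodes a carbonic anhydrase-related protein without enzyme activity, lies on the same chromosome 24.9 Mb away. It had 2396 counts (136.6 CPM) and 2380 counts (134.9 CPM), a log2 ratio of -0.02 (-0.10 to 0.07). CA11 on chromosome 19, which encodes another related protein without activity, had 72 counts (4.10 CPM) and 297 counts (16.8 CPM) and was 4.10-fold higher (3.16 to 5.39), close to CA13. A higher level in the SMC1A library was thus not particular to the cluster.

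Below 100 counts, the membrane-bound form CA14 had 6 and 32 counts (5.31-fold, 2.19 to 15.5) and the mitochondrial form CA5B 52 and 23 counts (2.27-fold lower). CA12, a transmembrane form, had 11 counts in each. CA4, CA6, CA9 and CA10 had 0 counts in both libraries. Per kilobase of merged exons, the order in the control library was CA8 (23.6 CPM per kilobase), CA1 (5.98), CA11 (1.98) and CA13 (0.856), and in the SMC1A library CA1 (37.5), CA8 (23.3), CA11 (8.12) and CA13 (3.90). Of all counts in the 15 family genes, the cluster held 17.2% (15.8 to 18.5) in the control library and 53.2% (51.9 to 54.5) in the SMC1A library.

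**Figure D4:**
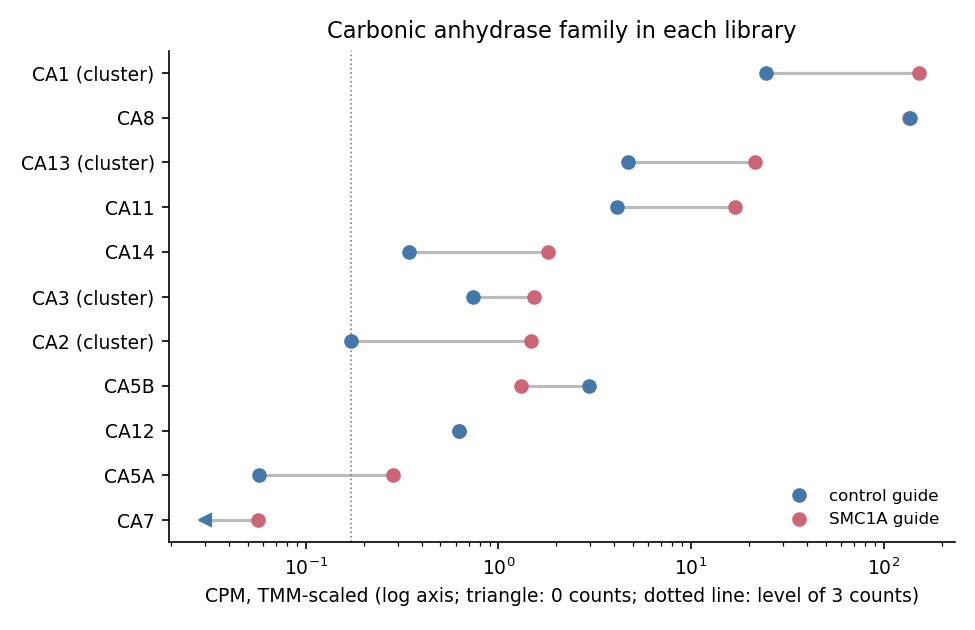
Level of the 11 carbonic anhydrase family genes that had any count, in CPM on a log axis, in the control library (blue) and the SMC1A library (red), joined by a line; a triangle marks 0 counts and the dotted line the level of 3 counts. CA1 passes CA8, whose points coincide, and CA11 and CA14 outside the cluster are shifted the same way as the cluster genes.

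CA1 belongs to a wider set of red cell genes that did not all lie on the same side. The following lists were chosen with earlier results of these data known. Their counts past 2-fold stand beside 5.11% upward and 2.32% downward over all 11321 genes with at least 100 counts. Among 30 measured red cell genes, with the carbonic anhydrases left out, 9 were past 2-fold upward and 4 downward (median log2 ratio 0.35). Most belong to the membrane or skeleton, but the list also holds AHSP, ALAS2, BPGM and HEMGN, which do not. AHSP is among the 4 downward. ACHE, the acetylcholinesterase that carries a blood group antigen, had a ratio above that of CA1 (254 and 1887 counts, log2 ratio 2.88). The blood group gene RHCE was at 1.59, though its reads are hard to divide from those of its near copy RHD. The spectrin gene SPTB was at -1.46 and AHSP, a chaperone of alpha globin, at -1.50. The adult beta globin gene HBB had 0 counts in both libraries, which allows up to 0.171 CPM in the control library and 0.170 CPM in the SMC1A library. Of 7 measured globin genes 0 were past 2-fold upward and 5 downward (median -1.56), and HBE1 alone was above its control level, at 0.62, with HBQ1 at -0.88, HBA1 at -1.76 and HBA2 at -2.29.

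Carbonic anhydrases work with transporters of bicarbonate, gases and protons. Of 12 measured genes of that kind, 3 were past 2-fold upward and 0 downward, with a median of 0.18. The shares over all genes with at least 100 counts were 5.11% upward and 2.32% downward. The anion exchanger gene SLC4A1, whose product trades bicarbonate for chloride across the red cell membrane, had 942 and 1942 counts (log2 ratio 1.04). RHAG, which encodes a gas channel protein of the Rh complex, had 6774 and 17988 counts (1.40). The water channel gene AQP3, the remaining gene past the limit, had 968 and 1995 counts (1.04). Another water channel gene, AQP1, was at -0.80 and the lactate transporter gene SLC16A1 at -0.51. The factors that act at erythroid genes had 0 of 16 past 2-fold upward and 4 downward, with a median of -0.41. LMO2 was at -2.04 and RUNX1 at -1.37, against TAL1 at 0.26 and SOX6 at 0.79. BCL11A, which represses fetal globin genes in adult cells, had 3 counts in each library.

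E2F5 lay inside the range of its own family. Among 17 measured genes of the other E2F factors, their DP partners, the pocket proteins and the MuvB core with which they form a repressor complex, 0 were past 2-fold in either direction. Their median log2 ratio was -0.09, or 0.035 by library totals. Over all genes with at least 100 counts, 5.11% were past 2-fold upward and 2.32% downward. A count of 0 among 17 is near those shares and is not read as a trait of the family. E2F4, the factor closest to E2F5 in kind, had 2425 and 1625 counts (-0.58, interval -0.68 to -0.49), and the partner gene TFDP1 was at -0.50. The atypical repressor gene E2F7 was the highest, with 265 and 514 counts (0.95, 0.73 to 1.17), just under the 2-fold limit on the TMM scale and past it by library totals, and the pocket protein gene RBL2 was at 0.37. There were 0.207 E2F5 counts per E2F4 count in the control library and 0.269 in the SMC1A library. Of 24 cell cycle genes that such complexes hold down in resting cells, 0 passed 2-fold and 21 had ratios below 0, with a median of -0.29. All 24 had 1000 or more counts, and of all genes with that many 63.0% had ratios below 0, with a median of -0.12. Upward, 1.8% of genes with that many counts were past 2-fold, so the 0 of 24 lies near that share. By library totals, 19 of the 24 were below 0 (79.2%, median -0.16), beside 49.0% of the 6395 genes with 1000 or more counts (median 0.009). CDC25A was at -0.59 and MCM2 at -0.58, and TK1 was at 0.05.

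**Figure D5:**
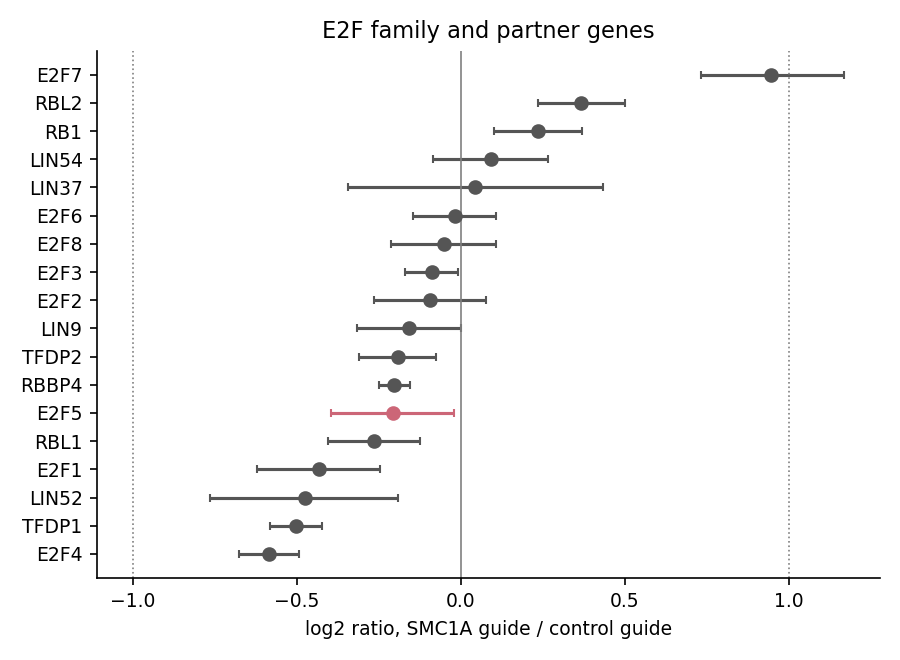
Log2 ratio of the SMC1A guide over the control guide for E2F5 (red) and the 17 other measured genes of the E2F family and its partners (grey), with exact 95% intervals; dotted lines mark 2-fold. E2F5 lies at -0.21, between E2F4 at -0.58 and E2F7 at 0.95.

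Genes of the cohesin ring and markers of other cells were read beside the cluster. Of the 5 cohesin ring genes, STAG1 was higher (797 and 1926 counts, log2 ratio 1.26), SMC3 was at -0.15 and STAG2 at 0.18. The median of the 5 was -0.03, or 0.10 by library totals. Muscle and fat, which are rich in CA3, and osteoclasts, which are rich in CA2, were looked for by their markers. Of 12 muscle and fat markers 7 had 0 counts in both libraries, and the summed level of 113.8 and 134.8 CPM came mainly from TNNT1 (1884 and 2336 counts), with the intermediate filament gene DES at 112 and 36. Osteoclast markers, 10 in all, summed to 60.8 and 63.5 CPM, with 0 of 3 measured genes past 2-fold: TCIRG1 had 395 and 549 counts, ACP5 203 and 206, and NFATC1 443 and 294. Below 100 counts, the cathepsin gene CTSK had 22 and 50 and CALCR 2 and 12, while OCSTAMP and ATP6V0D2 had 0 in both.

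Megakaryocyte markers summed to 63.4 CPM in the control library and 109.0 CPM in the SMC1A library, with 3 of 5 measured genes past 2-fold upward and 0 downward (TUBB1 at 1.90, GP6 at 1.58, ITGA2B at 1.28, GP1BB at 0.15, CD36 at -0.57). PPBP had 0 counts in the control library and 23 in the SMC1A library, and PF4, GP1BA, GP9, VWF and SELP had 0 counts in both. Myeloid and monocyte markers summed to 62.8 and 89.4 CPM, with 0 of 4 measured genes past 2-fold. CD33 had the highest ratio of these (281 and 473 counts); ITGAM had 10 and 28 counts, CSF1R 1 and 6, S100A9 0 and 5, and MPO, ELANE and S100A8 0 in both. Lymphoid markers summed to 19.3 and 29.3 CPM, with 1 of 2 measured genes past 2-fold upward (CD3G, 55 and 132 counts). NKG7 had 2 and 21 counts and IL7R 0 and 5, and MS4A1 and GNLY had 0 in both. Fibroblast and epithelial markers summed to 1521 and 2101 CPM, with 4 of 9 measured genes past 2-fold upward and 0 downward. COL3A1 had 2 and 154 counts, FN1 456 and 4514, COL1A1 64 and 233, and VIM 5058 and 11077, while LUM had 0 in both. Of the 9, 5 had ratios above 0 and 4 below. The lowest were COL1A2, with 70 and 42 counts (log2 ratio -0.73), and EPCAM, with 2978 and 2019 (-0.57). For comparison with these marker lists, 5.11% of all genes with at least 100 counts were past 2-fold upward and 2.32% downward. The part of these cell markers in the carbonic anhydrase difference was not tested.

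With 2 libraries, likeness of pattern is only likeness of ratio. Among 8114 protein-coding genes with at least 500 counts, the nearest to CA1 were ANK3, an ankyrin gene (77 and 482 counts, log2 ratio 2.62), SEMA3F (79 and 513 counts, 2.68) and SNCG (157 and 939 counts, 2.57). They lie on chromosomes 10, 3 and 10. For E2F5, which sits where ratios are dense, ISCA1, MNAT1 and the red cell skeleton gene TMOD1 were nearest, all at -0.21.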

How the data were processed

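Poly(A)-selected RNA from 1 µg per sample was made into strand-preserving libraries and sequenced as paired reads of 100 bases, per the labels' protocols. The authors deposited estimated counts per gene, unscaled and already whole numbers. The tools named, per the submitters' processing notes, were Salmon 1.10.1, STAR 2.7.10a and DESeq2 1.42.1 with build hg38 (GRCh38). Not given in the sources used here were their roles and the annotation. Salmon estimates divide reads that match several genes. Of 62702 rows, 62700 matched the name table. Positions and exon lengths came from GENCODE 29, which held 97.9% of genes with 100 counts.

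Libraries were scaled with TMM (edgeR 4.0.16, R 4.3.3), and log2 ratios used edgeR's CPM formula with a prior count of 1. Other steps ran in Python 3.11.15 with pandas 2.3.3, scipy 1.17.1 and numpy 2.4.6. Of these, the log2 ratio, the interval of the fold and the 2-fold call were tested on simulated Poisson counts. Genes with at least 100 counts over both libraries counted as measured, and a call was a difference of at least 2-fold. The smallest level, 3 counts, is 0.171 and 0.170 CPM.

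The members and lists were chosen with earlier results of these data known. Named were the members, SMC1A, genes within 1 Mb with 100 counts, the 2 highest and 2 lowest of each list, and for members with 500 counts the 3 genes nearest in ratio; some list members so picked are left out, and AQP3, ITGA2B, COL1A1, VIM, E2F5's ratio to E2F4 and genes given at 0 or few counts were added after their values were seen. Alternatives were scaling by library totals, by upper quartile, by size factors (DESeq2 1.42.0) or by TMM with globin and mitochondrial genes removed, a prior count of 0.25 or 5, and other filters and windows.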

Additional observations from a re-analysis of the deposited data

How the results depend on the processing

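All 5 members kept their sign under the 6 scalings and prior counts tried, with log2 ratios of 2.63 to 2.77 for CA1, 2.12 to 2.30 for CA13, 1.95 to 3.01 for CA2, 0.82 to 1.12 for CA3 and -0.21 to -0.08 for E2F5. CA3 reached 2-fold by DESeq2 size factors, library totals, upper quartile and a prior count of 0.25. CA1, CA13 and CA2 were the members whose whole interval lay past 2-fold. The numbers of genes past 2-fold (579 higher, 263 lower) were 1361 and 518 with 20 counts, 199 and 140 with 500, 3800 and 2714 with no filter, and 343 and 143 by whole intervals. Higher genes were 68.8% of calls, or 79.7% by library totals. As a share of CA1 and CA2 alone, CA1 was 99.3% and 99.0%. List medians that turned sign were those of the E2F family (0.035) and cohesin ring (0.10) by library totals, and, with 20 counts, of the carbonic anhydrases elsewhere (-0.0069, from 1.00) and the neighbours (-0.0093, from 0.09); the filter admits more genes there. No paired analysis was possible because each guide had 1 library. Depth limits CA2 and CA3 most.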
